A study of Mus musculus with 26 samples.

Results

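The enteric nervous system of the colon was followed through 8 genes, the neuronal genes Elavl4, Ret, Uchl1, Vip, Nos1 and Chat and the glial genes S100b and Sox10, out of 35975 genes with a quantified transcript. They were chosen by name as familiar markers of enteric neurons and glia, with earlier results of these data known. Whether other cells of the colon contributed RNA of these genes, Ret and Chat included, was not tested. The estimated counts of all transcripts of a gene were summed. The 26 bulk RNA-seq samples came from the colon of wild type C57BL/6J male mice, about 10 weeks old at the start, bought from Taconic and fed either a standard diet or a diet with GW3965, a synthetic agonist of the liver X receptors. At days 22, 43 and 70 the samples were from mice that had been injected with azoxymethane (AOM, 10 mg per kg body weight, a colon carcinogen) and then given up to 3 cycles of 7 days of dextran sulfate sodium (DSS, which injures the colon lining) in the drinking water, and each diet had 3 samples a day. At day 0, each diet had 4 samples from mice that received neither AOM nor DSS, 2 after 22 days and 2 after 43 days on the diet. The comparisons asked how the genes differed from untreated colon at each day on each diet, and whether the diets differed at each day. The paper states that RNA biopsies of AOM and DSS treated mice were taken in the distal colon, at the tumour areas. It describes no visible tumours at the earliest treated day, and at the next tumours almost only on the standard diet. At the last day it describes tumours on both diets, to differing extents. The part of tumour tissue in any difference between days or diets was not tested.

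Enteric neurons and glia lie in the myenteric plexus, between the muscle layers of the gut wall, and in the submucosal plexus beneath the mucosa. Both descend from the neural crest, whose cells colonize the gut under GDNF, a growth factor that signals through the receptor RET. The mature neurons relax the gut muscle with nitric oxide and vasoactive intestinal peptide and contract it with acetylcholine and tachykinins, and the glia support them. A piece of colon wall therefore holds neuronal RNA beside far more RNA of epithelium, muscle, connective tissue and immune cells. In such bulk samples, fewer neurons or glia and less RNA per cell cannot be told apart.

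Before the results, 3 features of the samples need stating. The standard diet day 43 replicate 1 had an RNA integrity number (RIN) of 2.6, against 6.8 to 10 in the other 25 samples, and the GW3965 day 70 replicate 1 held skeletal muscle genes at a summed 23932 CPM (counts scaled to a common library size), so main results are also given without both, an alternative chosen after seeing the data. The share of counts on ribosomal protein genes was 5.33 to 6.51% at day 0, 6.06 to 10.7% at day 22, 10.0 to 18.6% at day 43 and 3.96 to 6.66% at day 70, and the model carried this share as an additive term, where the study's own model took a percentage of ribosomal RNA in interaction with diet and time. One GW3965 day 0 sample, replicate 2 after 43 diet days, has a diet label that names the standard diet and was placed by its title. At days 0, 22 and 43 each diet had its own cage, so diet and cage cannot be told apart there, whereas every day 70 sample had a cage of its own. The cages of the untreated mice held no treated mice, so every comparison with day 0 is also one between cages, and day and cage cannot be told apart in it. Whether each sample is 1 mouse is not certain, because the study's reporting checklist mentions pools of animals sequenced as single samples, and p-values measure only the spread between these samples. Total estimated counts ran from 18195345 to 41522204 per sample.

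All 8 genes were present in untreated colon, at very different levels. Compared per length, in TPM (kallisto's transcript abundance scaled by length) at day 0 on the standard diet, Vip, which encodes vasoactive intestinal peptide, was at 30.0 ± 4.24 (SD, n = 4) and Uchl1, the neuronal deubiquitinase also called PGP9.5, at 24.2 ± 4.75. These neighbours overlapped in their ranges, from 24.5 to 34.2 and from 18 to 29 TPM. S100b, a calcium-binding protein of glia, followed at 5.60 ± 3.26 TPM. Sox10, the transcription factor of neural crest and glia, was at 2.67 ± 1.19 TPM, and Ret, the GDNF receptor kinase, at 2.61 ± 0.436 TPM, with overlapping ranges. Elavl4, the neuronal RNA-binding protein HuD, was at 1.08 ± 0.395 TPM and Nos1, neuronal nitric oxide synthase, at 0.973 ± 0.276 TPM, again overlapping. Chat, the enzyme that makes acetylcholine, had the lowest mean, 0.545 ± 0.754 TPM, with a range of 0.0894 to 1.67 that overlapped those of Elavl4 and Nos1. Its highest TPM came from a sample with 2 counts. Chat had 92 counts over all 26 samples, with 0 counts in 3 of them. It did not pass the filter on low counts, so 7 of the 8 genes were tested. Chat also contains the vesicular acetylcholine transporter gene Slc18a3 on the same strand (chr14:32408203-32465989 in GRCm38), and the division of reads between this pair was not examined.

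The other members lie at chr4:110203722-110351909 (Elavl4), chr6:118151745-118197718 (Ret), chr5:66676091-66687234 (Uchl1), chr10:5639218-5647617 (Vip), chr5:117781032-117958840 (Nos1), chr10:76253853-76261159 (S100b) and chr15:79154908-79165240 (Sox10) in GRCm38, and all are protein-coding. The Vip promoter is known for a cyclic AMP response element, the site through which CREB acts, and its core letters TGACG were searched on both strands in the 250 bases before each start site in RefSeq's promoter windows (build GRCm38.p6), which covered 6 of the 8 genes. The core was found in 4 of those 6 genes, against 17.8% of 32851 windows of all genes, with 1 window in each of Vip, Nos1 and Chat and several in Elavl4, so these counts have no test. In the stretches of these 4 genes the core is in capitals (CGTCA is the same site on the other strand). In Vip the TATA box is in capitals as well. Of the genes that fell at day 70 on the standard diet, Vip, Elavl4 and Nos1 have the core. Uchl1 and S100b fell too, and their windows lack it. Sox10 also fell, and neither Sox10 nor Ret had a window. Whether the core had a part in any change of these genes was not tested. The core began 79 bases before the start in Vip, 57 in Elavl4, 130 in Nos1 and 171 in Chat. Each start is that of a RefSeq window, and the Nos1 window lies inside the gene span given above. For Elavl4 the first window is shown, and its windows 2 and 3 hold the core at 130 and 146 bases.
Vip, chr10:5639118-5639217, plus strand: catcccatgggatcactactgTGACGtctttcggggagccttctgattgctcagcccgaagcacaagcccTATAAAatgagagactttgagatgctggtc
Elavl4, chr4:110351944-110351988, minus strand: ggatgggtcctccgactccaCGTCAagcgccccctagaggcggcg
Nos1, chr5:117866689-117866733, plus strand: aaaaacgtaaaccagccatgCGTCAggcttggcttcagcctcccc
Chat, chr14:32466056-32466100, minus strand: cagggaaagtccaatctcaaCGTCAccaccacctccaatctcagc
The full palindrome TGACGTCA was in 0 of the 6 genes and 1.55% of all windows, TATAAA in 1 of the 6 and 12.4%, and the exact form of DR4, the direct repeat of AGGTCA at a spacing of 4 bases that liver X receptors bind, in 0 of the 6 and 0.0152% of windows. These matches describe letters and not bound sites.

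At day 70 on the standard diet, 6 of the 7 tested genes fell against day 0 and none rose: Elavl4, Uchl1, Vip, Nos1, S100b and Sox10. Across all genes tested, 15.1% fell and 33.2% changed in either direction (edgeR's quasi-likelihood test, false discovery rate under 0.05), and the median log2 fold change was −2.47 over the 7 members and 0.03 over all genes. The 6 genes and Chat were lower in every day 70 sample than in every day 0 sample, where 19.3% of all genes were.

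The glial genes had the largest changes. Sox10 was at 5.23, 9.73, 4.26 and 3.27 CPM in the day 0 samples on the standard diet and at 0.263, 0.435 and 0.296 CPM at day 70. All 3 day 70 samples were close together and far below the lowest untreated one. The mean was 17-fold lower, and the log2 fold change was −4.01 with a standard error (SE) of 0.68 (adjusted p = 0.000309). S100b was at 4.80, 11.4, 5.11 and 2.53 CPM at day 0 and at 0.210, 0.392 and 0.719 CPM at day 70. Again no day 70 sample reached the untreated range, and the log2 fold change was −3.73 (SE 0.66, adjusted p = 0.000430).

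Among the neuronal genes, Elavl4 went from 2.73, 3.92, 3.66 and 1.78 CPM at day 0 to 0.683, 0.566 and 0.380 CPM at day 70. The groups were separate, and the log2 fold change was −2.47 (SE 0.47, adjusted p = 0.000804). Vip, the most abundant of the 8, was at 31.1, 37.6, 36.8 and 25.4 CPM at day 0 and at 4.73, 12.7 and 4.19 CPM at day 70. Its day 70 replicate 2 was the highest of the 3 and still below every untreated sample, with a log2 fold change of −2.23 (SE 0.40, adjusted p = 0.000454). Uchl1 was at 13.9, 23.9, 20.6 and 15 CPM at day 0 and at 2.21, 8.84 and 5.41 CPM at day 70. Replicate 2 was again the highest, and the log2 fold change was −1.78 (SE 0.38, adjusted p = 0.00157). Nos1 was at 7.11, 10.1, 9.23 and 5.0 CPM at day 0 and at 0.841, 2.31 and 0.719 CPM at day 70. The groups did not overlap, but its larger spread over all samples left the log2 fold change of −2.54 with an SE of 0.94 (adjusted p = 0.0421). Without both samples that stood apart, neither of them in this comparison, the shared spread was smaller and Nos1 had an adjusted p of 0.000368. The call was lost in 4 of the 13 settings tried and in 5 of the 7 fits without 1 sample of these groups, where the adjusted p reached 0.147. Chat had 3, 6, 5 and 2 counts at day 0 and 0, 2 and 0 counts at day 70, too few for a test.

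Ret did not move with the others. It was at 8.71, 11.2, 12.3 and 8.67 CPM at day 0 and at 27.5, 14.8 and 12.6 CPM at day 70 on the standard diet. Every day 70 sample was above every untreated one, replicate 1 furthest, as for 23.9% of all genes. The log2 fold change of 0.84 (SE 0.35) did not pass the test (adjusted p = 0.0706). It passed without both samples that stood apart, neither of them in this comparison (adjusted p = 0.0331).

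**Figure D1:**
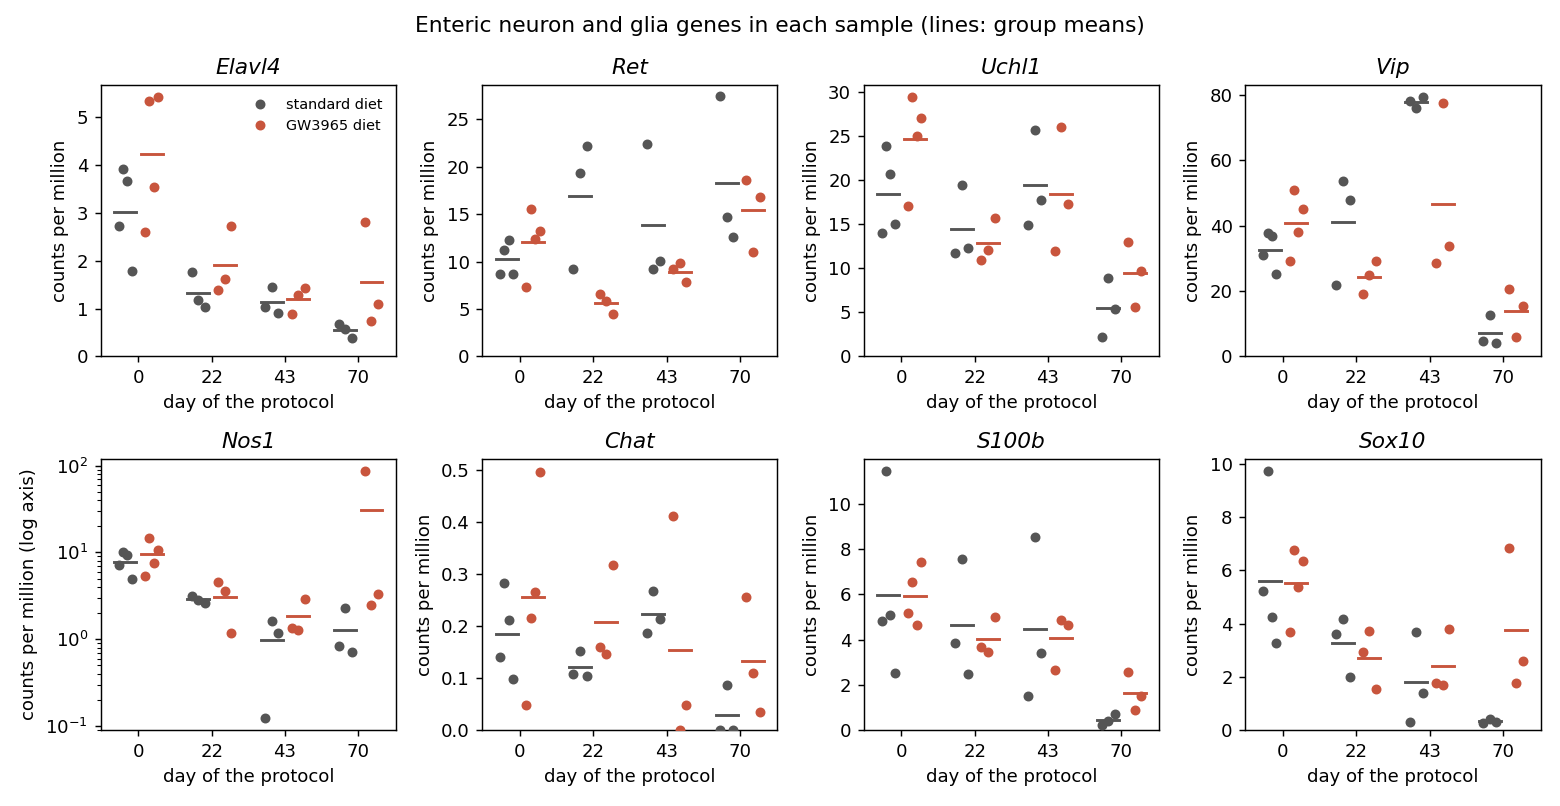
CPM of the 8 genes in each of the 26 samples by day and diet, with lines at the group means and a log axis for Nos1 only. At day 70 on the standard diet all genes but Ret lie below their day 0 values, and the GW3965 day 70 replicate 1 stands alone at 86.5 CPM of Nos1.

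On the GW3965 diet, 4 of the 7 genes fell at day 70 against that diet's own day 0: Elavl4, Uchl1, Vip and S100b. Of all genes, 7.43% fell and 21.8% changed in either direction, and the median log2 fold change was −1.23 over the members and 0.10 over all genes. In 3 of the 4, all but Elavl4, every day 70 sample was lower than every day 0 sample, as in 13.1% of all genes.

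Vip was at 29.2, 51.0, 38.1 and 45.1 CPM at day 0 on GW3965 and at 20.5, 6.00 and 15.4 CPM at day 70. Replicate 1 lay nearest the untreated range, and the log2 fold change was −1.30 (SE 0.39, adjusted p = 0.0211). Uchl1 was at 17, 29.4, 25 and 27 CPM at day 0 and at 13, 5.60 and 9.68 CPM at day 70, in the same order of replicates. Its log2 fold change was −1.23 (SE 0.38, adjusted p = 0.0240). S100b was at 5.16, 6.54, 4.63 and 7.41 CPM at day 0 and at 2.56, 0.884 and 1.52 CPM at day 70. It was separate from day 0 and had a log2 fold change of −1.81 (SE 0.60, adjusted p = 0.0361). Elavl4 was at 2.60, 5.33, 3.53 and 5.42 CPM at day 0 and at 2.82, 0.737 and 1.09 CPM at day 70. Replicate 1 fell within the untreated range and the other 2 did not, with a log2 fold change of −1.48 (SE 0.46, adjusted p = 0.0257).

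Sox10 and Nos1, which fell on the standard diet, did not pass the test on GW3965. Sox10 was at 3.68, 6.75, 5.37 and 6.36 CPM at day 0 and at 6.86, 1.77 and 2.61 CPM at day 70. Replicate 1 was the highest of these 7 samples and the other 2 were the lowest, so that the log2 fold change of −0.87 (SE 0.58) had an adjusted p of 0.30. Nos1 was at 5.40, 14.8, 7.46 and 10.8 CPM at day 0 and at 86.5, 2.47 and 3.36 CPM at day 70. Here too replicate 1 lay above all others and replicates 2 and 3 below all others, with a log2 fold change of 1.28 (SE 0.88, adjusted p = 0.319). Ret was at 7.32, 15.6, 12.4 and 13.2 CPM at day 0 and at 18.6, 11 and 16.8 CPM at day 70, which overlapped. Its log2 fold change was 0.36 (SE 0.36, adjusted p = 0.510).

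Without both samples that stood apart, 6 of the 7 genes fell on the GW3965 diet, in a fit where 10.9% of all genes fell. Sox10 then had a log2 fold change of −1.51 (SE 0.48, adjusted p = 0.0267) and Nos1 one of −1.89 (SE 0.53, adjusted p = 0.0134), and that of Ret was 0.21 (SE 0.35). The count of 4 with all samples was also sensitive to single libraries. It became 0 without the GW3965 day 0 replicate 2 of 22 diet days, or without GW3965 day 70 replicate 2 or replicate 3, and 2 without the sample with conflicting labels. It was 0 as well when only the day 0 samples of 43 diet days served as controls.

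**Figure D2:**
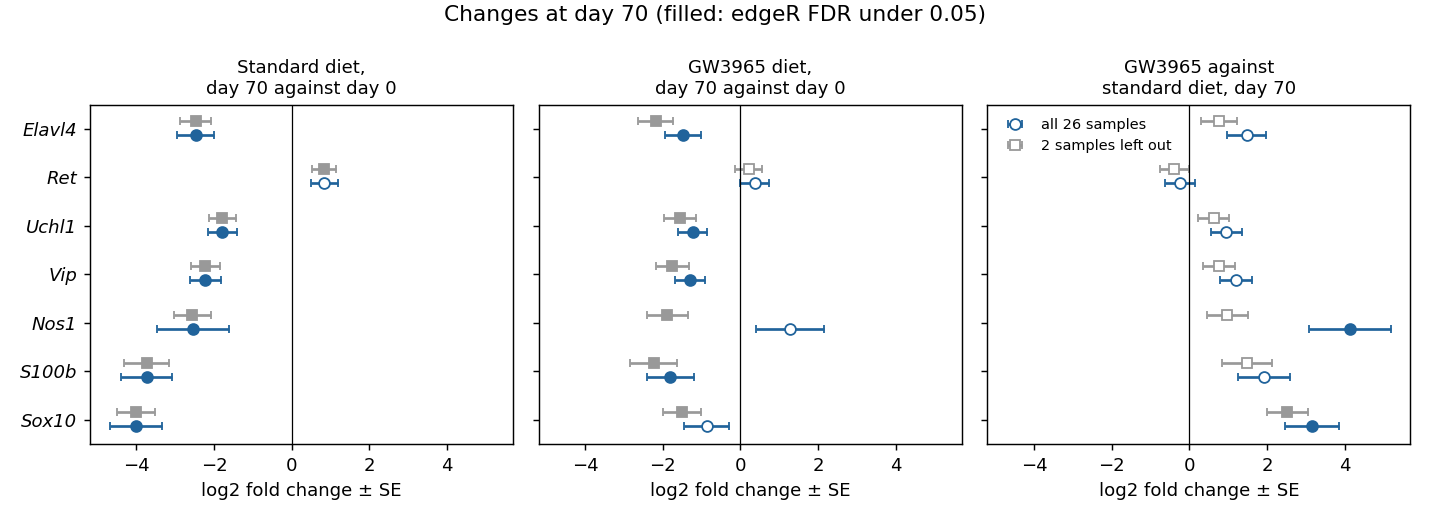
Log2 fold changes with SE of the 7 tested genes at day 70, against day 0 on each diet and between the diets, with filled points for an FDR under 0.05. On the standard diet 6 genes fell by 1.78 to 4.01, on GW3965 4 genes fell, and between the diets Nos1 and Sox10 were higher on GW3965.

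Between the diets at day 70, 2 of the 7 genes were higher on GW3965, Sox10 and Nos1, and none was lower. Of all genes, 1.75% were higher and 1.83% differed in either direction, and the median log2 difference was 1.48 over the members and 0.02 over all genes. Sox10 was at 0.263, 0.435 and 0.296 CPM on the standard diet and at 6.86, 1.77 and 2.61 CPM on GW3965. The diets did not overlap, and the log2 difference was 3.16 (SE 0.69, adjusted p = 0.0292), an 11.3-fold ratio of means. Nos1 was at 0.841, 2.31 and 0.719 CPM on the standard diet and at 86.5, 2.47 and 3.36 CPM on GW3965. Its lowest GW3965 sample was just above its highest standard sample, and the log2 difference of 4.14 (SE 1.06, adjusted p = 0.0494) rested on replicate 1.

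Sox10 and Nos1 differed in what remained without both samples that stood apart. The Sox10 log2 difference was then 2.53 (SE 0.53, adjusted p = 0.0193), whereas that of Nos1 was 0.98 (SE 0.53, adjusted p = 0.419). With only the GW3965 day 70 replicate 1 left out, neither passed, and 0 genes also passed when any 1 of the standard day 70 samples was left out, which leaves a single pair of samples in that arm. Without GW3965 day 70 replicate 2, 4 genes passed.

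The other 5 genes did not pass between the diets at day 70. Elavl4 (log2 difference 1.48, SE 0.50, adjusted p = 0.117) and S100b (1.91, SE 0.67, adjusted p = 0.130) were higher in every GW3965 sample than in every standard sample, which with Sox10 and Nos1 made 4 genes, where 10.5% of all genes were. Vip had a log2 difference of 1.21 (SE 0.41, adjusted p = 0.124) and Uchl1 one of 0.96 (SE 0.40, adjusted p = 0.206), with overlapping groups. Ret had a log2 difference of −0.23 (SE 0.38, adjusted p = 0.775). At an unadjusted p under 0.05 the count was 6 of 7, where 18.8% of all genes were.

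The diet difference at day 70 was also set against that at day 0, to test whether it was itself different in treated and untreated colon. None of the 7 genes passed, and 0 of all genes did. For Sox10 the log2 difference of differences was 3.14 (SE 0.85, adjusted p = 0.177), for Nos1 3.82 (SE 1.28, adjusted p = 0.223) and for S100b 1.93 (SE 0.84, adjusted p = 0.345). At an unadjusted p under 0.05 these 3 genes counted, where 12.7% of all genes did, and DESeq2 called Sox10 alone. The smaller change of the 7 genes against day 0 on GW3965 is therefore not shown to differ from that on the standard diet.

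Nos1 is also a gene of skeletal muscle fibres, where its protein sits at the membrane, and the sample with 86.5 CPM was the one with skeletal muscle RNA. In the GW3965 day 70 replicate 1, Acta1 was at 5910 CPM, Ckm at 4323 CPM and Myh1 at 4294 CPM. The 10 skeletal muscle genes summed to 23932 CPM there and to 12.1 and 24.2 CPM in replicates 2 and 3 of that group. In the standard day 70 samples they summed to 9.51, 858 and 165 CPM, and in the day 0 samples to between 22.6 and 88.1 CPM. The same library held the highest value of each of the 8 genes within its group and the highest smooth muscle sum, 8868 CPM against 3359 and 4900. The part of either muscle in these values was not tested. With that library alone left out, the Sox10 log2 difference between the diets was 2.51 (SE 0.67, adjusted p = 0.0913). Schwann cells of peripheral nerve also express Sox10 and S100b.

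**Figure D3:**
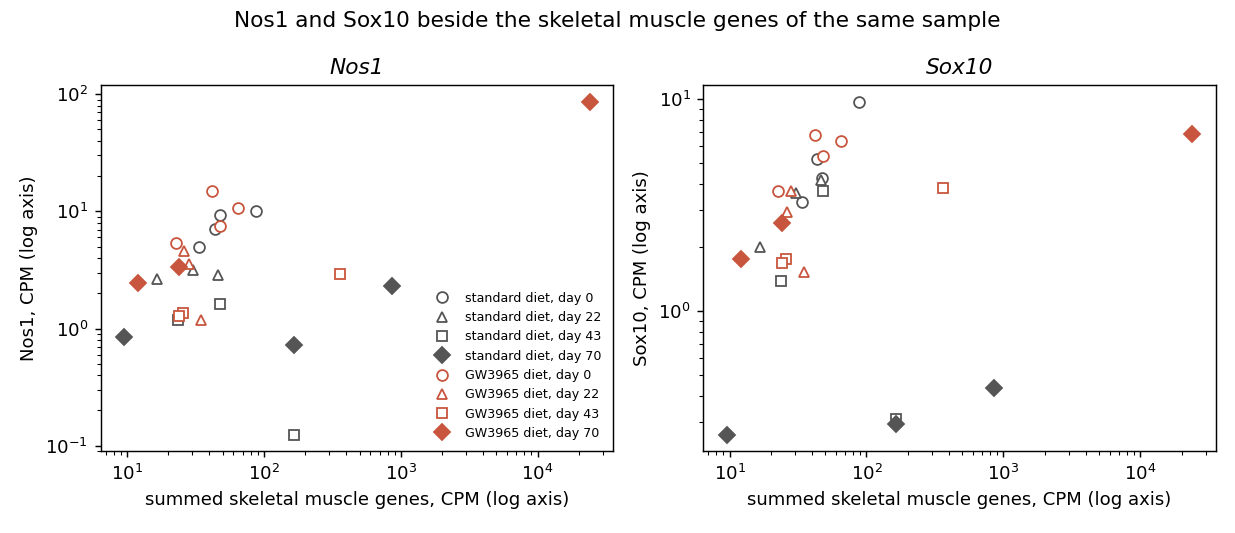
Nos1 and Sox10 in CPM against the summed CPM of 10 skeletal muscle genes in each sample, on log axes. The GW3965 day 70 replicate 1 lies alone at 23932 CPM of muscle genes with 86.5 CPM of Nos1 and 6.86 CPM of Sox10.

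The lists of other enteric nervous system genes had medians below 0 against day 0 on both diets at day 70, nearer 0 on GW3965. They were chosen with earlier results of these data known, so they are no independent support. Summed levels did not all follow the medians. On the standard diet, mean sums went from 139 to 32.7 CPM for general neuronal genes and from 451 to 163 for receptors and effectors. Glia went from 369 to 295, GDNF and endothelin from 169 to 122 and transmitters from 66.2 to 81.3. On GW3965 the sums went, in that order, from 159 to 88.7, 454 to 200, 366 to 369, 165 to 183 and 81.0 to 172 CPM. Of all genes, 18.1% rose and 15.1% fell on the standard diet, and 14.4% rose and 7.43% fell on GW3965. On the standard diet 12 of 15 general neuronal genes fell at day 70 and none rose, with a median log2 fold change of −2.14. They included Rtn1, a reticulon of neurons (−2.30, adjusted p = 0.000152), and Snap25, of the vesicle fusion machinery (−2.14, adjusted p = 0.000154). On GW3965 6 of the 15 fell, with a median of −1.13, Rtn1 by 1.76 (adjusted p = 0.00161) and Snap25 by 1.40 (adjusted p = 0.00447), and 11 of the 15 fell without both samples that stood apart. Against the standard diet at day 70, 3 of the 15 were higher on GW3965, among them Prph, the intermediate filament of peripheral neurons (2.64, adjusted p = 0.0357), and Stmn3 (2.09, adjusted p = 0.0493). Without both samples that stood apart, 1 of the 15 passed.

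Of 15 tested transmitter genes, 8 fell and 2 rose on the standard diet at day 70, with a median of −1.37. Sst, which encodes somatostatin, fell by 2.10 (adjusted p = 0.00147) and Slc5a7, the choline transporter of cholinergic neurons, fell by 1.98 (adjusted p = 0.00290). Calcb, a calcitonin gene-related peptide gene, rose by 6.11 (adjusted p = 0.000674), from a mean of 0.593 to 40.3 CPM. On GW3965 3 fell and 2 rose, with a median of −0.34 (−1.05 without both samples that stood apart, when 4 fell and 3 rose), and Calcb was again among the risers (6.54, adjusted p = 0.000606), beside a fall of Nmu, neuromedin U (−4.01, adjusted p = 0.00423). No transmitter gene passed between the diets at day 70. Sst is also made by endocrine cells of the epithelium, of whose 9 listed genes 5 fell on the standard diet.

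Of 12 glial genes, 6 fell and 1 rose on the standard diet, with a median of −1.95. Cdh19, a cadherin of glia and Schwann cells, fell by 4.09 (adjusted p = 0.000100) and Entpd2, the ecto-ATPase of enteric glia, fell by 1.39 (adjusted p = 0.000677). Sox2 was the gene that rose, and it rose on GW3965 too (4.54, adjusted p = 0.00391). Sox2 is also a gene of stratified epithelium. The 8 listed genes of that epithelium summed to between 2.82 and 11.4 CPM in the day 0 samples. At day 70 their sums were 2672 to 4080 CPM on the standard diet and 21.8 to 16249 CPM on GW3965. On GW3965 2 of the 12 glial genes fell, Entpd2 by 0.93 (adjusted p = 0.0166) and Cdh19 by 1.61 (adjusted p = 0.0343), with a median of −0.10. The count was 4 of the 12, with a median of −0.39, without both samples that stood apart. Between the diets Gfap, the glial filament protein, was higher on GW3965 (2.94, adjusted p = 0.0252), the only 1 of the 12.

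The GDNF and endothelin pathways that guide the neural crest were represented by 11 genes, of which 6 fell and none rose on the standard diet at day 70. Gdnf itself fell by 4.19 (adjusted p = 7.27e-05), its co-receptor gene Gfra1 fell by 3.56 (adjusted p = 0.000420) and Gfra4 fell by 3.41 (adjusted p = 0.000967), while Ret, the shared signalling receptor, did not fall. On GW3965 2 of the 11 fell, Gdnf by 1.68 (adjusted p = 0.0222) and Gfra4 by 2.04 (adjusted p = 0.0264), and none differed between the diets. The medians were −1.05, −0.61 and 0.85. On GW3965 4 of the 11 fell without both samples that stood apart.

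On the receiving side, 9 of 12 receptor and effector genes fell on the standard diet, with a median of −2.28. They included both subunits of the nitric oxide receptor guanylyl cyclase, Gucy1a1 (−2.98, adjusted p = 0.000137) and Gucy1b1 (−1.95, adjusted p = 0.000455), and Tacr2, the neurokinin A receptor of gut muscle (−3.77, adjusted p = 0.000204). On GW3965 2 fell, Vipr1, a receptor for vasoactive intestinal peptide (−1.69, adjusted p = 0.00336), and Tacr2 (−1.87, adjusted p = 0.0208), with a median of −0.55. Between the diets Gucy1a1 alone was higher on GW3965 (2.24, adjusted p = 0.0252). When both samples that stood apart were left out, 7 of the 12 fell on GW3965, with a median of −1.32, and 0 were higher between the diets.

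Smooth muscle genes, which mark the layers that hold the myenteric plexus, moved with the members. All 12 fell on the standard diet at day 70, with a median of −2.61, among them Lmod1 (−3.12, adjusted p = 0.000124), Tagln (−2.61, adjusted p = 0.000421) and Cnn1 (−2.65, adjusted p = 0.000520). Their summed level was 9657 to 28452 CPM at day 0 and 1888 to 4127 CPM at day 70. On GW3965 5 of the 12 fell, with a median of −1.26 and sums of 6491 to 16906 CPM at day 0 and 3359 to 8868 CPM at day 70, and none differed between the diets (median 0.93). Leaving out both samples that stood apart, 11 of the 12 fell on GW3965, with a median of −1.73. None of the 12 was at 0 in any day 70 sample. The part that the muscle or tumour content of the sampled tissue had in the falls of the neuronal and glial genes was not tested. Of the 3 genes of the interstitial cells of Cajal, the pacemaker cells of the gut, 2 fell on the standard diet, Etv1 (−2.24, adjusted p = 0.000169) and Kit (−1.17, adjusted p = 0.000173), and 1, Kit, on GW3965 (−0.71, adjusted p = 0.00924).

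**Figure D4:**
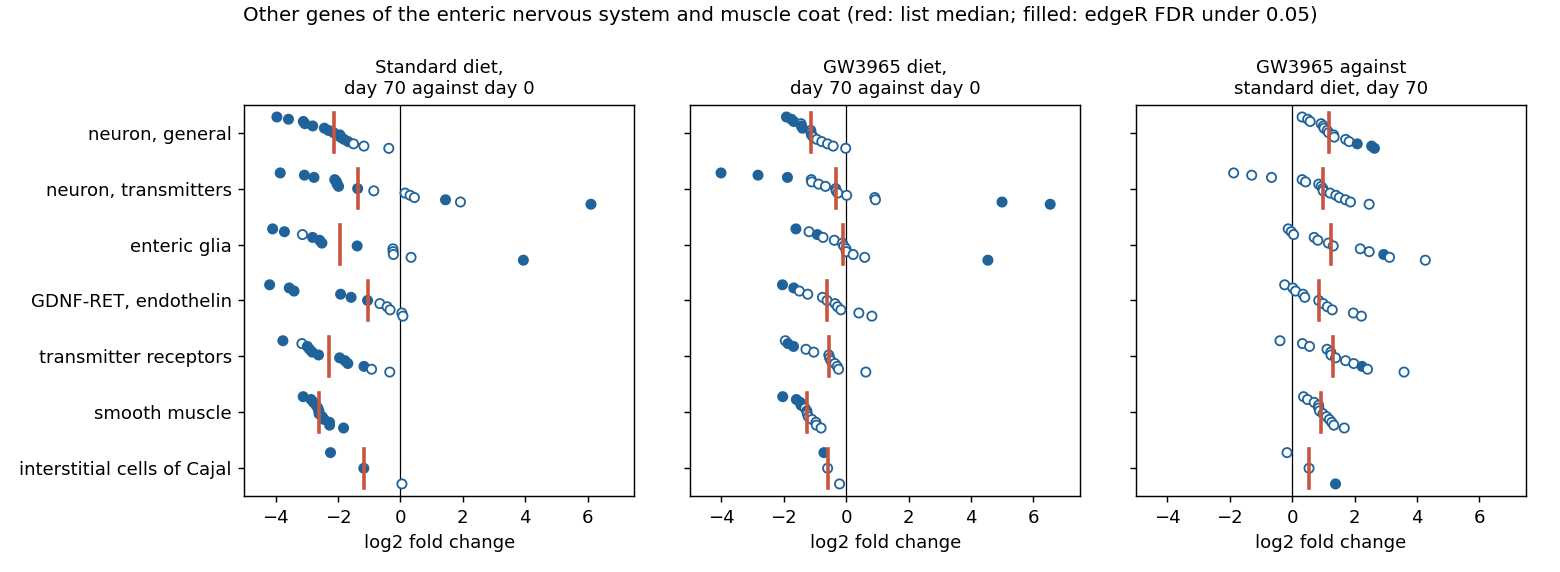
Log2 fold changes at day 70 of single genes in the lists of neuronal, transmitter, glial, GDNF and endothelin, receptor, smooth muscle and Cajal cell genes, with the list median in red and filled points for an FDR under 0.05. On the standard diet the medians lie between −2.61 for smooth muscle and −1.05 for the GDNF and endothelin genes, and all lie nearer 0 on GW3965.

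The remaining lists were of cells outside the nervous system. Of all genes, 18.1% rose and 15.1% fell on the standard diet at day 70, and 14.4% rose and 7.43% fell on GW3965. Without both samples that stood apart, 24.9% rose and 20.6% fell on the standard diet, and 18% rose and 10.9% fell on GW3965. Single genes that rose or fell in such short lists are no result about a cell type. On the standard diet at day 70, none of 6 colon epithelium genes changed, 1 of 6 fibroblast genes rose and 1 fell, 1 of the 2 tested mesothelium genes rose, 1 of the 7 tested tuft cell genes rose and 2 fell, 4 of 10 skeletal muscle genes rose, and all 6 B cell genes and all 4 adipocyte genes fell. On GW3965 the counts were none of the colon epithelium, B cell and adipocyte genes, 3 fibroblast genes up, 1 mesothelium gene up, 1 tuft cell gene up, 9 skeletal muscle genes up, and 1 endocrine gene up and 3 down. The skeletal muscle count rested on GW3965 day 70 replicate 1. Without both samples that stood apart, 0 of the 10 skeletal muscle genes rose on GW3965 (median −1.71), 1 fibroblast gene rose, 2 tuft cell genes rose and 1 fell, 1 mesothelium gene rose and 1 fell, 1 endocrine gene rose and 2 fell, and 3 of the 4 adipocyte genes fell, while on the standard diet 9 of the 10 skeletal muscle genes rose. All 6 B cell genes were higher on GW3965 than on the standard diet at day 70, with sums of 5.05 to 10.5 CPM on the standard diet and 19.2 to 342 CPM on GW3965.

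At day 22 none of the 7 genes passed the test in any comparison. On the standard diet against day 0, 7.73% of all genes changed. Elavl4 was at 1.77, 1.17 and 1.03 CPM, below every untreated sample, with a log2 fold change of −1.17 (SE 0.45, adjusted p = 0.127), and Nos1 at 3.17, 2.85 and 2.63 CPM was also below every untreated sample (−1.15, SE 0.90, adjusted p = 0.528). These made 2 genes lower in every sample, where 11% of all genes were. The other 5 tested genes overlapped, with log2 fold changes from −0.51 (Uchl1, SE 0.37) to 0.71 (Ret, SE 0.37, adjusted p = 0.282). At an unadjusted p under 0.05 there was 1 gene, where 20.9% of all genes were.

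On GW3965 at day 22, 12.6% of all genes changed against day 0 and all 7 estimates were below 0. Uchl1 was at 10.9, 12 and 15.7 CPM (log2 fold change −1.17, SE 0.39, adjusted p = 0.0515), Ret at 6.63, 5.81 and 4.53 CPM (−1.12, SE 0.39, adjusted p = 0.0619) and Vip at 19.1, 24.9 and 29.1 CPM (−1.10, SE 0.40, adjusted p = 0.0737). These 3 and Nos1 lay below every untreated sample of the diet, where 23% of all genes did. The count at an unadjusted p under 0.05 was 4, where 26.6% of all genes were. Without both samples that stood apart, neither of them in this comparison, 5 of the 7 passed, where 23.1% of all genes did. DESeq2 called 3 of the 7 and 17.2% of all genes. Among the other neuronal genes 4 of 15 fell, where 3.46% of all genes did, among them Rtn1 (−1.84, adjusted p = 0.00235).

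The clearest gene between the diets at day 22 was Ret. It was at 9.24, 19.4 and 22.2 CPM on the standard diet and at 6.63, 5.81 and 4.53 CPM on GW3965. The groups were separate, as for 11.5% of all genes in that direction, and the GW3965 samples were also below all untreated samples. The mean was 2.99-fold lower on GW3965, and the log2 difference of −1.59 (SE 0.39, unadjusted p = 0.000580) had an adjusted p of 0.126 in a comparison where 0.135% of all genes passed. It passed in 5 of the 13 settings tried, some of which left out samples of other groups, with adjusted p from 0.0118 to 0.178. Set against the diet difference at day 0, where 0.0234% of all genes passed, the log2 difference of differences was −1.83 (SE 0.51, adjusted p = 0.360). Vip was next, with a log2 difference of −0.87 (SE 0.39, adjusted p = 0.460), and these 2 were the genes with an unadjusted p under 0.05, where 9.96% of all genes were.

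At day 0 the diets did not differ in any of the 7 genes, and 0.0293% of all genes did. The log2 differences ran from −0.01 (S100b, SE 0.50) to 0.48 (Elavl4, SE 0.39), and 0 genes had an unadjusted p under 0.05. None of the 8 was separate between the diets, where 2.29% of all genes were.

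At day 43 the results turned on the ribosomal term. With it, 0 of the 7 genes passed against day 0 on either diet, and 0% of all genes passed on the standard diet and 0.938% on GW3965. Without it, 55.1% of all genes passed on the standard diet and 45.3% on GW3965. The ribosomal share did not overlap between day 43 and day 0, so that what the day did and what went with that share cannot be told apart in these samples.

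The directions of Vip and Sox10 depended on this term on both diets, and that of Uchl1 on the standard diet, where its log2 fold change was −0.96 (SE 0.70) with the term and 0.08 (SE 0.37) without. Vip was at 78.0, 75.9 and 79.3 CPM at day 43 on the standard diet, more than in every untreated sample, as for 25.6% of all genes, and at 28.7, 77.5 and 33.7 CPM on GW3965. The 3 standard diet samples were close together, the one with the low RIN included. Without the ribosomal term 30.8% of all genes rose, and Vip rose by 1.25 on the log2 scale (SE 0.41, adjusted p = 0.0128). With the term its log2 fold change was −0.44 (SE 0.74, adjusted p = 0.972). In TPM its day 43 mean was 34.0 ± 2.24 (n = 3) and overlapped the 30.0 ± 4.24 of day 0.

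In the same model without the ribosomal term, Elavl4, Nos1 and Sox10 fell on the standard diet at day 43, where 24.2% of all genes fell. Elavl4 was at 1.03, 1.45 and 0.911 CPM (−1.42, SE 0.44, adjusted p = 0.00948), and it and Nos1 lay below every untreated sample, as 22.8% of all genes did. Nos1 was at 0.124, 1.61 and 1.18 CPM (−3.06, SE 0.98, adjusted p = 0.0118), with the lowest value in the sample of RIN 2.6. Sox10 was at 0.311, 3.69 and 1.39 CPM (−1.66, SE 0.61, adjusted p = 0.0268), with the lowest value in that sample too, and with the term its log2 fold change was 0.12 (SE 1.11). On GW3965 Elavl4 fell by 1.81 (adjusted p = 0.00259) and Nos1 fell by 2.36 (adjusted p = 0.0436) without the term, where 19.3% of all genes fell. Between the diets at day 43 none of the 7 passed with the term (lowest adjusted p = 0.702) or without it, in a comparison where 0.0293% of all genes passed with the term and 0.105% without it, and 0 had an unadjusted p under 0.05. The diet difference there was no different from that at day 0 by the test either (lowest adjusted p = 0.994, 0% of all genes).

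**Figure D5:**
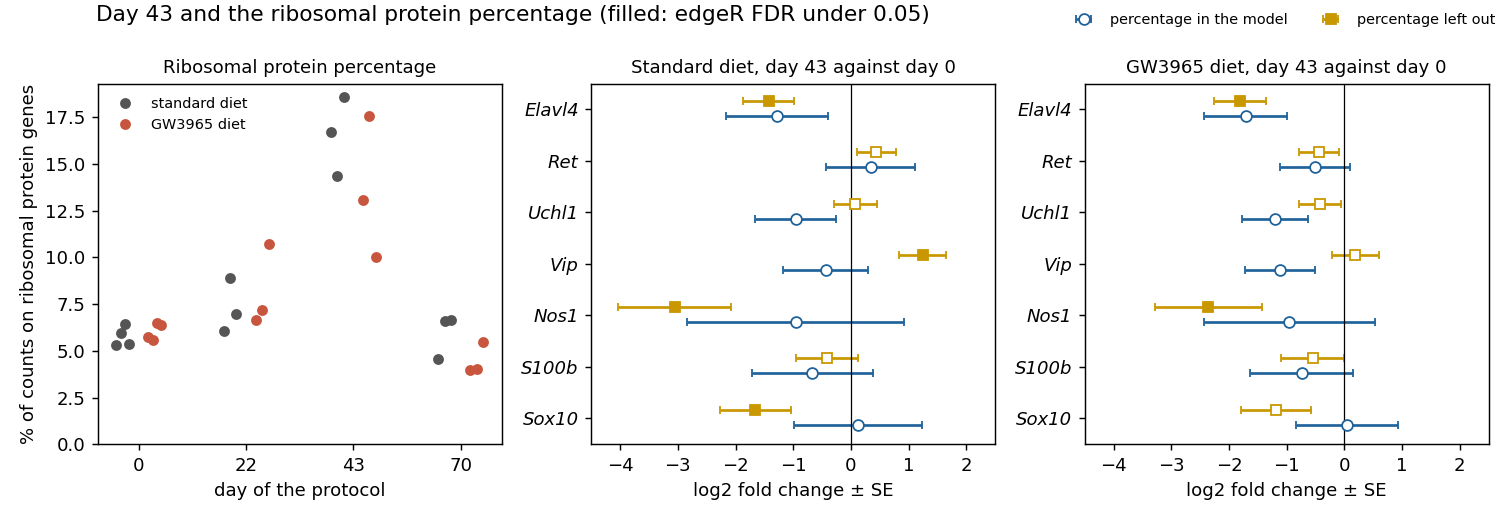
Share of counts on ribosomal protein genes in each sample by day, and log2 fold changes with SE at day 43 against day 0 on each diet with and without that share in the model. The share is 10.0 to 18.6% at day 43 against 5.33 to 6.51% at day 0, and Vip on the standard diet is at −0.44 with the term and 1.25 without.

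The 8 genes did not vary as a single block across the 26 samples. As a description over samples that share groups and cages, Pearson's r of log2 CPM between Ret and each of the other 6 tested genes was between −0.42 and −0.02, and between the remaining 15 pairs it ran from 0.05 to 0.89. These values include the differences between groups. For deviations from the group means, r ran from −0.22 to 0.42 for the pairs with Ret and from 0.24 to 0.82 for the other pairs. The genes most like each member over all 26 samples were Snap25 for Elavl4 (r = 0.93), Wnt5a for Ret (0.86), 6330403K07Rik for Uchl1 (0.94), Dpt for Vip (0.91), Mpdz for Nos1 (0.92), Clec3b for S100b (0.94) and Kcna6 for Sox10 (0.97). Gfra1 (0.97) and Gpr37l1 (0.96) came next for Sox10, and Paqr8 (0.79) and Tnc (0.78) for Ret, Slc7a14 and Mamdc2 (both 0.91) for Elavl4, Ppp1r1a (0.93) and Stmn3 (0.92) for Uchl1, Abi3bp (0.91) and Rdm1 (0.90) for Vip, Tek and Sparcl1 (both 0.92) for Nos1, and Mxra7 (0.94) and Psd (0.93) for S100b.

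The counts of several members came mainly from 1 transcript, S100b-201 with all counts of its gene, Vip-201 with 99.0%, Nos1-206 with 96.2%, Sox10-201 with 89.2% and Uchl1-201 with 87.7%. Ret was divided between Ret-202 with 53.8% and Ret-201 with 46.2%. Ret-202 held 51.8 ± 8.02% of Ret counts at day 0 and 67.6 ± 5.45% at day 70 on the standard diet, and 43.4 ± 2.34% and 60.5 ± 4.20% on GW3965. On each diet the day 70 shares lay above all day 0 shares, a description with no test. The other transcripts with at least 10% of a gene's counts were Elavl4-206, Elavl4-207, Elavl4-202, Elavl4-204 and Elavl4-201 (24.6, 23.9, 22.6, 15 and 10.4%), Chat-201 (83.5%), Sox10-203 (10.1%) and Uchl1-202, a retained intron (11.8%), which held 0.970 ± 1.94% of Uchl1 at day 0 and 29.2 ± 14.9% at day 43 on the standard diet, the sample of RIN 2.6 included, and 6.92 ± 6.24% and 9.56 ± 7.74% on GW3965.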

How the data were processed

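RNA from colon tissue was extracted with the Qiagen RNeasy kit, and polyA RNA was sequenced by Novogene as paired-end reads of 150 bases on a NovaSeq. The authors quantified transcripts with kallisto against the GRCm38 cDNA assembly (the kallisto version is not given in the sources used here), and deposited for each sample the estimated counts and the TPM (abundance per length and library) of 119414 transcripts. The deposited estimated counts are raw and unscaled, and the deposited TPM values are scaled by transcript length and library size. No step removed duplicates or used molecular identifiers, as far as stated.

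Estimated counts were summed over the 116728 transcripts that GENCODE's GRCm38 annotation assigns to a gene (unmatched transcripts held 0.615 to 0.999% of counts) and rounded to whole numbers. CPM values used TMM library sizes (factors 0.753 to 1.14). The main test was edgeR 4.0.16 (R 4.3.3), glmQLFit and glmQLFTest, over all 26 samples in 8 groups with the centred percentage of counts on 88 ribosomal protein genes as an additive term, because the study corrected for a percentage of ribosomal RNA and its full interaction model leaves too few degrees of freedom here. The filter filterByExpr kept 17063 genes, 17 residual degrees of freedom remained, and Benjamini-Hochberg adjustment ran over all 17063 genes with an FDR threshold of 0.05, in 13 comparisons. The comparisons of one diet with day 0 share that diet's 4 day 0 samples, so their results are not independent of each other. The fit was tested on simulated counts with known changes. No 2 samples held identical values.

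The 8 members and all gene lists were chosen with earlier results of these data known. Named were all members, from each list at most the 3 genes of smallest p among those past the FDR threshold in a comparison and genes needed to read a member, for each member the 3 genes of highest Pearson correlation, and transcripts with at least 10% of a member's counts. Some listed genes that the rule names are not reported here, though the counts and medians of their lists include them. The lists were general neuronal, transmitter, glial, GDNF and endothelin, receptor and effector, smooth muscle, Cajal cell, skeletal muscle, stratified epithelium, tuft cell, endocrine, B cell, colon epithelium, fibroblast, mesothelium and adipocyte genes. A list is described by its counts and median, with no set test. Alternatives were DESeq2 1.42.0, RLE size factors, no filter, no ribosomal term, RIN in its place, only the compared groups, day 0 split by diet days, a replicate block, and leaving out samples. Promoter stretches were read from RefSeq windows, which did not include Ret or Sox10.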

Additional observations from a re-analysis of the deposited data

How the results depend on the processing

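The count of genes among the 7 that passed stayed within 1.5 times its main value in 121 of 156 other settings and in 100 of 110 fits without 1 sample. Most of the 13 comparisons had a main count of 0, which was kept only if it stayed 0, so these figures say little about the comparisons with calls. Of the log2 fold changes of single genes, 958 of 1092 and 673 of 770 kept their direction and their side of the threshold. With TPM in place of CPM, 16 of 56 group levels relative to the standard diet day 0 moved by at least their SD in CPM. Elavl4, Uchl1, Vip, S100b and Sox10 fell on the standard diet at day 70 in all 13 settings and all 7 fits without 1 sample, and Nos1 in 9 of 13 and 2 of 7. Sox10 was higher on GW3965 at day 70 in 12 of 13 settings and Nos1 in 5 of 13. Without 1 sample, the counts ranged from 0 to 4 between the diets at day 70, from 5 to 6 on the standard diet and from 0 to 4 on GW3965 at day 70, from 0 to 2 on GW3965 at day 22, and were 0 in the other comparisons. The Nos1 difference between diets at day 70 ranged from 0.98 to 4.97 and that of Sox10 from 2.51 to 3.52, each passing in 2 of 6 such fits.

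Counts moved in these settings. Between the diets at day 22 (0 in the main fit) 1 gene passed with DESeq2, with RIN as the covariate, without the sample of lowest RIN and without both samples that stood apart, with or without the ribosomal term. Between the diets at day 70 (2) the count was 1 with no filter, RLE, a replicate block, day 0 split, the label conflict left out, or both samples left out with or without the ribosomal term, and 0 with only the compared groups. On the standard diet at day 22 (0) it was 1 with only the compared groups, 1 without both samples and 2 without both and without the ribosomal term, and at day 43 (0) it was 4 without the ribosomal term, 3 with only the compared groups and 3 without both samples and the term. On GW3965 at day 22 (0) it was 1 without the ribosomal term, 1 with RLE, 3 with DESeq2, 1 with RIN, 6 with only the compared groups, 2 without the lowest RIN, 5 without both samples and 3 without both and the term. On GW3965 at day 43 (0) it was 2 without the term, 2 with RIN, 3 with only the compared groups and 3 without both and the term. On GW3965 at day 70 (4) it was 2 with the replicate block, 0 with day 0 split and 2 without the label conflict. The diet difference at day 70 against that at day 0 (0) gave 1 gene, Sox10, with DESeq2. Without the ribosomal term, 55.1% of all genes passed on the standard diet at day 43. On GW3965, 20.7% did at day 22 and 45.3% at day 43. Without both samples and with the term, 15.4% passed on the standard diet and 23.1% on GW3965 at day 22. Neither sample is in a day 22 comparison, so leaving them out acts there only through estimates that all samples share. Between the diets it was then 1.17% at day 22 and 2.14% at day 70. Where no such share is given, a count is not read as a result about the members. The causes were not tested.

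Directions reversed for Vip on the standard diet at day 43, which was 1.25 without the ribosomal term, 1.21 with only the compared groups and 1.25 without both samples and the term. Sox10 there was −1.66 without the term, and on GW3965 at day 43 it was −1.23 with only the compared groups and −1.18 without both samples and the term. Nos1 on GW3965 at day 70 was −1.89 without both samples and −1.72 without them and the term. Same-numbered samples did not deviate together (correlations from −0.37 to 0.20, 2 of 13 pairs above 0.1), so the replicate block pairs samples by number only. Over all genes, the diet comparison at day 70 called 312 genes, 524 without the ribosomal term and 366 without both samples. With 92 counts over 26 samples, Chat could not be tested at this depth.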
